A study of Mus musculus with 6 samples.

Results

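The genes described here were 10 mRNAs used to recognise inhibitory interneurons of the forebrain, namely those of the peptides neuropeptide Y (Npy), somatostatin (Sst), vasoactive intestinal peptide (Vip), cholecystokinin (Cck), proenkephalin (Penk) and tachykinin 1 (Tac1), of the calcium buffer parvalbumin (Pvalb), and of the GABA machinery Gad1, Gad2 and Slc32a1. They were taken by gene symbol from a list of names, and all 10 were found among 21958 protein-coding genes in the count table. RNA came from synaptoneurosomes (SN), a brain fraction of pinched-off synapses that holds both the presynaptic and the postsynaptic side, made from hippocampus and the cortex beside it of FVB mice aged 6-8 weeks. In the group called NMDA polyribosomes (3 libraries), SN were given NMDA (50 µM) with glutamate (10 µM) for 30 s, then the receptor blocker APV (120 µM), were kept at 37°C for 20 min, and the RNA of the polyribosomal fractions of a sucrose gradient was sequenced. In the group called unstim. Total (3 libraries), the whole RNA of SN that had not been stimulated was sequenced after depletion of ribosomal RNA. The methods describe unstimulated control samples as held on ice with the protein synthesis inhibitor cycloheximide. Stimulation, incubation and fraction thus changed together between the groups, and their parts in any difference cannot be told apart. SN of several mice were pooled and split, so a replicate is not a single animal. The 3 replicates of a group are taken here, from their column labels, as 3 preparations, which the methods do not state.

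GABAergic interneurons make the transmitter GABA from glutamate with the glutamate decarboxylases encoded by Gad1 and Gad2 and load it into synaptic vesicles with the transporter encoded by Slc32a1. Subclasses of these cells are told apart by the neuropeptides or calcium-binding proteins that they make, and neuropeptides, unlike GABA, are made as precursor proteins on ribosomes of the secretory pathway and packed into dense-core vesicles. Cck, Penk and Tac1 are also expressed by some excitatory or other neurons, so that none of the 3 marks interneurons alone. In RNA of a mixed preparation, fewer terminals of a cell type and less RNA in each of them cannot be told apart.

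Libraries held between 1044955 and 7361580 counts over protein-coding genes, with the lowest total in unstim. Total replicate 3. The 10 genes together took 0.101 to 0.185% of the counts of the polyribosome libraries and 0.0749 to 0.114% of those of the total libraries. Replicates of a group differed by more than sampling noise. Libraries that share a replicate number deviated together and are taken to come from 1 preparation. The results of the 10 genes are therefore also given from a fit with the replicate number as a block. Levels are given as counts scaled to the size of the library by the TMM method of edgeR (CPM), and differences as the log2 of polyribosomes over Total. Called means an adjusted p under 0.01 over all genes tested, 12255 in the edgeR fits on all 6 libraries with the filter.

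The sequence around a start codon is where a ribosome begins, and the contexts of 5 of the genes are shown, chosen after their values were seen: Slc32a1 with Gad1 and Gad2, which changed in opposite directions, and Npy with Penk, peptide precursors that differ at the position described after them. They were read from Gencode vM21 transcripts (GRCm38), for which all 10 genes had an entry, and give 10 bases before the start codon, the start codon in capitals and 4 bases after it. Start codons lie on chromosome 2, plus strand, at chr2:158611242-158611244 for Slc32a1, at chr2:70563832-70563834 for Gad1 and at chr2:22622663-22622665 for Gad2, on chromosome 6, plus strand, at chr6:49823598-49823600 for Npy, and on chromosome 4, minus strand, at chr4:4138141-4138143 for Penk.
Slc32a1: cgccgccgccATGgcca
Npy: gcccgccacgATGctag
Penk: cctacagcccATGgcgc
Gad1: caccgagctgATGgcat
Gad2: agcagaacccATGgcgt
A purine (A or G) 3 bases before the start codon is the best known feature of a favourable context. It was present in 7 of the 10 genes, against 84.7% of all genes with a transcript, and Penk, Gad1 and Gad2 had C there. Among genes tested, those with a purine at this position had a median log2 fold change of 0.01 (10416 genes) and those without it one of -0.03 (1588 genes), so that the position separated genes little. The last 42 coding bases of Sst, which encode the 14 residues of mature somatostatin, are shown with the stop codon in capitals as an example of the peptide that such a precursor carries at its end. They lie in the Sst gene at chr16:23889581-23890844, minus strand.
Sst: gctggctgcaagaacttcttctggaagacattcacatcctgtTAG

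Of the 6 peptide precursors, 5 (Npy, Sst, Vip, Cck and Penk) were more abundant on polyribosomes than in Total in every same-numbered pair. So was Slc32a1, while Gad1 and Gad2 were less abundant in every pair. The share of all genes with the same sign in every pair is not given here. These directions therefore describe single genes and do not set the list apart. Across the 10 genes, 8 log2 fold changes were above 0 and the median was 0.53, against 50.1% positive and a median of 0.00 over all genes tested. In the edgeR fit with group as the only term, 0 of the 10 genes were called, where 3.07% of all genes were (0.710% higher and 2.36% lower). In the same fit 8 had an unadjusted p under 0.05 (6 higher and 2 lower), where 32.5% of all genes did (15.4% higher and 17.1% lower). With the replicate block, 8 of the 10 were called, where 25.0% of all genes were: Npy, Sst, Vip, Cck, Penk and Slc32a1 rose (6 genes, background 11.8%) and Gad1 and Gad2 fell (2 genes, background 13.2%). DESeq2 without the block called 3 of them, Npy, Cck and Slc32a1, all higher, where 7.14% of all genes were called (3.31% higher and 3.83% lower). Groups did not overlap for 4 of the 10 genes (Npy and Slc32a1 higher, Gad1 and Gad2 lower), a share near the 36.2% over all genes (17.4% higher and 18.9% lower). The median over the 10 genes was 0.35 in pair 1, 0.61 in pair 2 and 0.84 in pair 3 (SD 0.24).

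**Figure D1:**
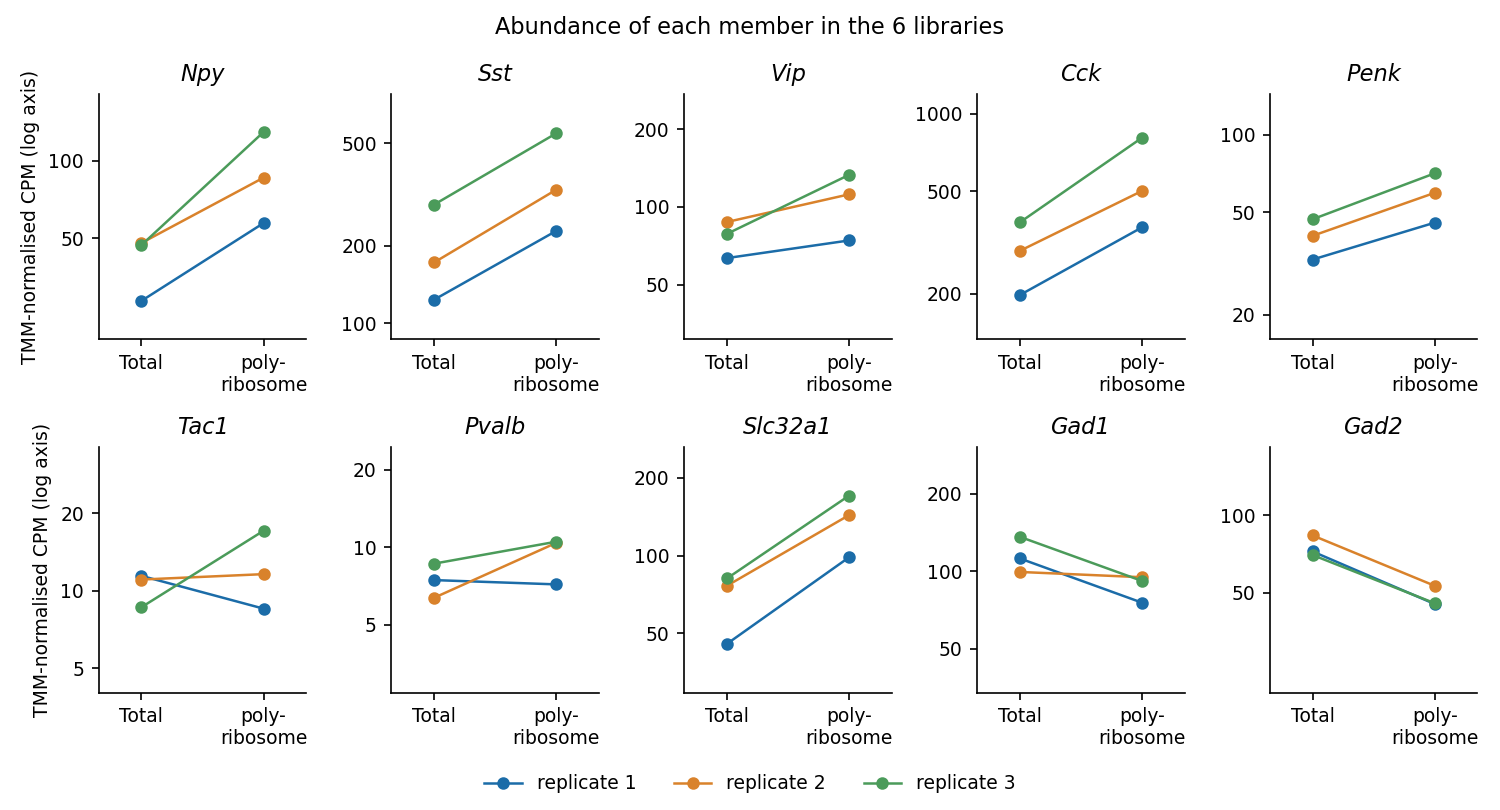
TMM-normalised CPM (log axis, each panel spanning the same ratio) of each of the 10 genes in unstim. Total and NMDA polyribosome libraries, with 1 coloured line for each replicate number. Lines of Npy, Sst, Vip, Cck, Penk and Slc32a1 climb in all 3 replicates, those of Gad1 and Gad2 descend in all 3, and those of Tac1 and Pvalb differ in direction.

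Npy encodes neuropeptide Y, an inhibitory peptide of many interneurons (chr6:49822710-49829507, plus strand). Its level was 57.2, 85.9 and 129 CPM in polyribosome replicates 1, 2 and 3 and 28.6, 47.9 and 47.0 CPM in the total libraries. The lowest polyribosome value lay above the highest total value. The log2 fold change was 1.17 (SE 0.28, adjusted p = 0.0154), a 2.25-fold higher level, and with the replicate block it was 1.06 (SE 0.14, adjusted p = 2.8e-10). This was the largest change of the 10 genes in both fits, on 49 to 143 counts in a total library, but Slc32a1 was ahead in 2 of 3 pairs and without NMDA polyribosomes replicate 3 (0.88 against 0.85), and Sst without unstim. Total replicate 3 (1.32 against 1.25).

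Sst encodes the precursor of somatostatin, the peptide of interneurons that contact distal dendrites. It had 228, 330 and 546 CPM on polyribosomes against 123, 172 and 289 CPM in Total. The preparations differed more than the groups did, so that total replicate 3 lay above polyribosome replicate 1 and the groups overlapped. Within pairs, however, the ratio hardly moved, with log2 values of 0.88, 0.94 and 0.92. The group-only fit gave 0.94 (SE 0.31, adjusted p = 0.0534), and the block gave 0.91 (SE 0.13, adjusted p = 2.0e-09). Without NMDA polyribosomes replicate 3 the group-only value was 0.55.

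Cck encodes cholecystokinin, made by a class of basket cells and also by pyramidal cells (chr9:121489825-121495689, minus strand). Polyribosome libraries held 362, 502 and 807 CPM and total libraries 198, 294 and 379 CPM. As for Sst, the highest total library passed the lowest polyribosome library, and all 3 pairs pointed up. Group alone gave a log2 fold change of 0.95 (SE 0.28, adjusted p = 0.0342), and the block 0.91 (SE 0.13, adjusted p = 2.7e-09). Without NMDA polyribosomes replicate 3 the former was 0.59.

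Vip, the peptide of interneurons that mostly inhibit other interneurons, changed less (chr10:5639218-5647614, plus strand). It had 74.1, 112 and 133 CPM on polyribosomes and 63.3, 87.4 and 78.6 CPM in Total. Each pair was higher on polyribosomes, by log2 values of 0.23, 0.35 and 0.76, but polyribosome replicate 1 lay below total replicates 2 and 3. The log2 fold change was 0.48 (SE 0.21, adjusted p = 0.135) and with the block 0.42 (SE 0.13, adjusted p = 0.0061), and by group alone it was 0.29 without NMDA polyribosomes replicate 3.

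Penk encodes the precursor of the enkephalins, opioid peptides (chr4:4133531-4138819, minus strand). Its values were 45.6, 59.5 and 70.8 CPM on polyribosomes and 32.8, 40.5 and 47.0 CPM in Total. Only polyribosome replicate 1 fell within the range of the total libraries. By group alone the difference was 0.58 on the log2 scale (SE 0.21, adjusted p = 0.0668), and 0.53 (SE 0.14, adjusted p = 0.00119) with the block. The annotation places the noncoding gene A830012C17Rik on the opposite strand over Penk, and since the use of strand in counting is not given in the sources used here, its reads may be among these counts.

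Tac1, the precursor of substance P and neurokinin A, was low and showed no stable direction (chr6:7554879-7565834, plus strand). It had 8.52, 11.6 and 17.1 CPM on polyribosomes and 11.4, 11.1 and 8.63 CPM in Total, the last from 9 counts. Pair 1 was lower on polyribosomes, pair 2 close to even and pair 3 higher, and the groups overlapped. With the block the log2 fold change was 0.04 (SE 0.21, adjusted p = 0.908), and by group alone 0.17 (SE 0.27, adjusted p = 0.704) became -0.11 without NMDA polyribosomes replicate 3.

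Pvalb encodes parvalbumin, a calcium buffer of fast-spiking basket cells (chr15:78191114-78206400, minus strand). Like Tac1 it had few counts in the total libraries. Its level was 7.17, 10.4 and 10.5 CPM on polyribosomes and 7.45, 6.36 and 8.63 CPM in Total. Polyribosome replicate 1 lay inside the range of Total. On the log2 scale the difference was 0.36 (SE 0.26, adjusted p = 0.371) and with the block 0.30 (SE 0.24, adjusted p = 0.357). Total libraries held 9 to 30 counts of it, and the pairs (-0.05, 0.67 and 0.27) differed by about as much as the change itself.

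The genes of the GABA machinery split. Slc32a1 encodes the vesicular GABA transporter (chr2:158610767-158615748, plus strand). Its level was 98.5, 144 and 171 CPM on polyribosomes and 45.4, 76.4 and 81.5 CPM in Total. Every polyribosome library was above every total library, and the pairs gave log2 ratios of 1.11, 0.91 and 1.06. The fold change was 2.07, or 1.05 on the log2 scale (SE 0.24, adjusted p = 0.0133), and 1.03 (SE 0.13, adjusted p = 1.1e-10) with the block.

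Gad2 encodes the decarboxylase that is concentrated at terminals (chr2:22622205-22693874, plus strand). It had 45.2, 53.2 and 45.5 CPM on polyribosomes and 72.3, 83.4 and 70.0 CPM in Total. The groups did not overlap, and the pairs lay within a narrow range of -0.67, -0.64 and -0.62. Gad2 was 1.58-fold lower on polyribosomes, a log2 fold change of -0.66 (SE 0.16, adjusted p = 0.0198), and -0.65 (SE 0.13, adjusted p = 2.1e-05) with the block.

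Gad1 encodes the decarboxylase that makes most of the GABA of the brain (chr2:70553072-70602014, plus strand). Its values were 75.6, 94.9 and 91.8 CPM on polyribosomes and 112, 99.5 and 136 CPM in Total. The groups did not overlap, although polyribosome replicate 2 and total replicate 2 were close. On the log2 scale the value was -0.39 (SE 0.17, adjusted p = 0.131), and -0.39 (SE 0.13, adjusted p = 0.00851) with the block. Antisense genes are annotated over both Gad1 (Gad1os) and Slc32a1 (Gm14205), and 2 microRNA genes lie within Gad2, so these counts may hold reads of the partner.

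Within pairs, the log2 ratio of Slc32a1 exceeded that of Gad1 by 1.68, 0.97 and 1.63, a mean of 1.43 ± 0.39 (SD, n = 3). Gad2 minus Gad1 came to -0.24 ± 0.29 and was below 0 in all 3 pairs (-0.11, -0.58 and -0.05). The mean difference of the decarboxylase genes was thus smaller than the spread between pairs. Among peptides, Penk minus Npy had a mean of -0.56 ± 0.29 and Cck minus Npy one of -0.18 ± 0.16, each below 0 in all 3 pairs, while Sst minus Npy (-0.18 ± 0.32) was of mixed sign. With 3 pairs, an exact sign-flip test cannot go below p = 0.25, so these differences are descriptions.

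**Figure D2:**
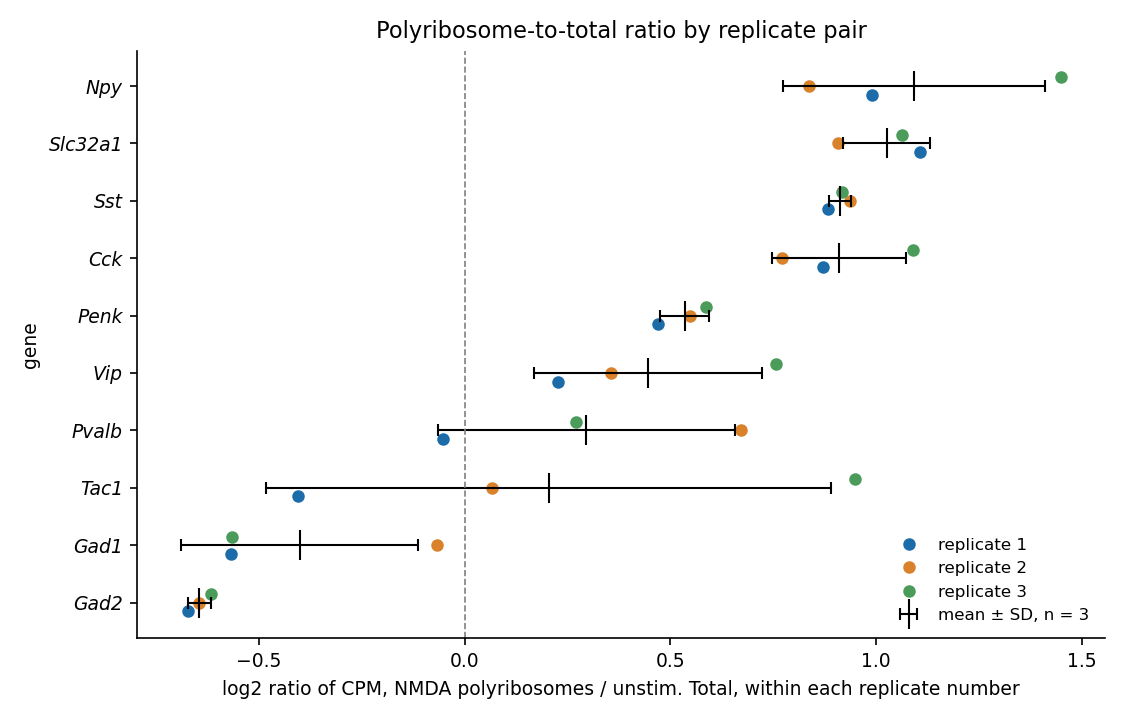
The log2 ratio of CPM, NMDA polyribosomes over unstim. Total, for each gene (rows) and replicate number (coloured points), with the mean (long tick) and SD of the 3 pairs. Sst and Gad2 have the narrowest spread, Tac1 the widest, and the points of Slc32a1 lie to the right of 0 while those of Gad1 and Gad2 lie to the left.

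Leaving out any 1 pair left fewer of the 10 genes called with the block. Over all genes, calls fell from 3063 to 1537 without pair 1 and to 1200 without pair 2. Without pair 3 they numbered 3072. Npy, Sst, Cck and Slc32a1 were called when any 1 of the 3 pairs was left out (alternatives added after seeing the data). Without pair 1, 5 genes were called, those 4 and Gad2, where 12.6% of all genes were. Without pair 2 those 4 were called and Gad1 and Gad2 were not, where 9.70% of all genes were. Without pair 3, 7 were called and Vip was lost, where 24.5% of all genes were.

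Per kilobase of exon, levels spanned a wide range. On polyribosomes, Sst had 510 ± 225 CPM per kb (SD, n = 3) and Cck 479 ± 196, followed by Npy with 160 ± 63.9, Vip with 69.6 ± 19.6, Slc32a1 with 49.2 ± 13.1, Penk with 40.5 ± 8.72 and Gad1 with 20.0 ± 2.37. At the low end were Tac1 with 10.1 ± 3.53, Pvalb with 8.99 ± 1.82 and Gad2 with 8.35 ± 0.79, beside a median over all genes of 6.76. In this order the libraries of Sst and Cck overlapped, as did those of Vip with Slc32a1 and of Slc32a1 with Penk. Those of Tac1, Pvalb and Gad2 overlapped too. In Total the levels per kb were lower for Sst (270 ± 118), Cck (250 ± 77.9) and Npy (72.7 ± 19.3), and the middle of the order changed. Slc32a1 stood at 24.2 ± 6.97, below Penk (27.7 ± 4.91) and Gad1 (26.6 ± 4.27), with overlapping libraries, whereas on polyribosomes every library of Slc32a1 was above every library of Gad1.

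The preparations themselves differed in several of these mRNAs. Sst in replicate 3 was 2.34 times its level in replicate 1 among total libraries and 2.39 times among polyribosome libraries. Of 6277 genes with a mean count of at least 100, 1.18% had a larger ratio in Total and 0.191% on polyribosomes, where the median ratios were 0.997 and 1.00. Cck (1.91 and 2.23), Npy (1.65 and 2.26), Slc32a1 (1.79 and 1.74) and Penk (1.43 and 1.55) were also higher in replicate 3 in both fractions, as was Vip (1.24 and 1.80). Gad1 (1.21 and 1.21) and Gad2 (0.97 and 1.01) varied little, and Tac1 went opposite ways (0.76 in Total and 2.01 on polyribosomes). The dissection, the depth and the make-up of the preparations were not varied on purpose, and their part in this spread was not tested. The standard error of Sst was 0.31 by group alone and 0.13 with the block, and that of Gad2 0.16 and 0.13.

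As a description over 6 libraries, which share preparations and depth, log2 CPM of Sst and Cck had a Pearson correlation of 0.988, Cck and Penk one of 0.992, and Npy and Slc32a1 one of 0.985. Gad1 and Gad2 were less alike (0.684), and Gad2 ran against Slc32a1 (-0.736). Among 6327 other genes with a mean normalised count of at least 100, the gene most like Vip was Lamp5 (0.997), a marker of another interneuron class. For Npy it was Pcdhgc5 (0.997), for Sst Pbxip1 (0.998), for Cck Sod1 (0.997), for Penk Cyb5r3 (0.997), for Slc32a1 Pex14 (0.999), for Gad2 Rnmt (0.996), for Gad1 Fhod3 (0.980), for Pvalb Plxna4 (0.973) and for Tac1 Nrp2 (0.963).

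Base composition and coding length moved with the log2 fold change over all genes. Transcripts with a GC content up to 45% had a median of -0.35 (2659 genes, 21.9% positive) and those over 55% a median of 0.32 (3201 genes, 79.5% positive). Coding sequences up to 600 bases had a median of 0.15 (1455 genes) and those over 1500 bases one of -0.10 (5836 genes). The Spearman correlation over 12212 genes, which are not independent, was 0.54 with GC content and -0.22 with coding length.

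The 10 genes were spread along both properties. Slc32a1 had the highest GC content (61.9%), ahead of Cck (58.9%), Sst (56.0%), Npy (53.7%) and Penk (52.7%), and Gad2 (44.1%) and Vip (42.2%) had the lowest. The coding sequences of Npy (294 bases), Cck (348) and Sst (351) were short, while those of Gad1 (1782), Gad2 (1758) and Slc32a1 (1578) were long. Slc32a1 thus paired a long coding sequence with a GC content unlike that of the decarboxylases, Gad1 having 48.4%.

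**Figure D3:**
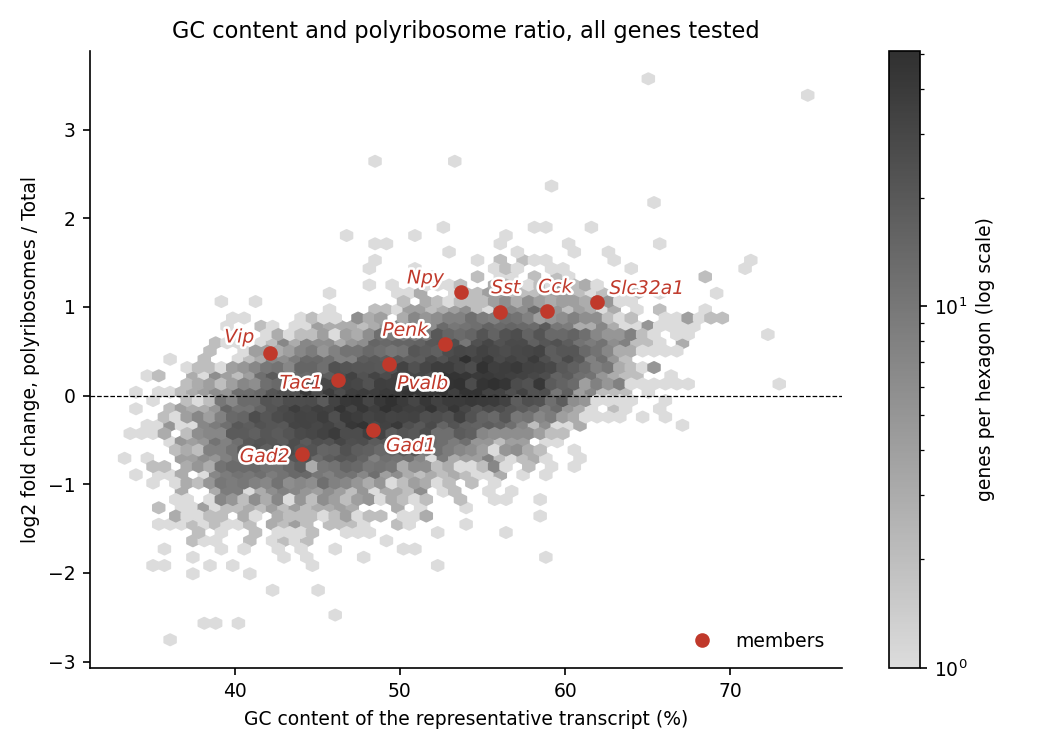
GC content of the representative transcript (%) against the log2 fold change of the group-only fit for 12212 genes, shaded by genes per hexagon on a log scale, with the 10 genes as red points. The cloud climbs from left to right, Npy and Vip lie at its upper edge, and Gad1 and Gad2 lie in its lower part.

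GC content and the length of the whole transcript, not of the coding sequence, were then offset in the fit with the block. In that fit 4 of the 10 genes were called, all higher. Over all genes 16.6% were called (9.20% higher and 7.37% lower). Npy came to 0.70 (adjusted p = 2.1e-06), Slc32a1 to 0.60 (adjusted p = 1.9e-05) and Sst to 0.48 (adjusted p = 7.2e-04). Vip, a gene of low GC content, moved up to 0.60 (adjusted p = 1.5e-05). Cck (0.37, adjusted p = 0.0108) and Penk (0.33, adjusted p = 0.0483) were no longer called. Gad2 (-0.31, adjusted p = 0.0422) and Gad1 (-0.26, adjusted p = 0.0864) kept their sign and were no longer called either. Tac1 and Pvalb remained uncalled, at 0.04 and 0.17. Over 13 alternatives to the group-only edgeR fit, the adjusted p ran from 1.1e-10 to 0.0833 for Slc32a1, from 2.8e-10 to 0.0965 for Npy, from 2.0e-09 to 0.269 for Sst and from 2.7e-09 to 0.28 for Cck. The ranges were 1.5e-05 to 0.442 for Vip, 0.0012 to 0.31 for Penk, 2.1e-05 to 0.241 for Gad2 and 0.00851 to 0.363 for Gad1. Among these 8 genes the lowest value came from the block alone for all but Vip.

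**Figure D4:**
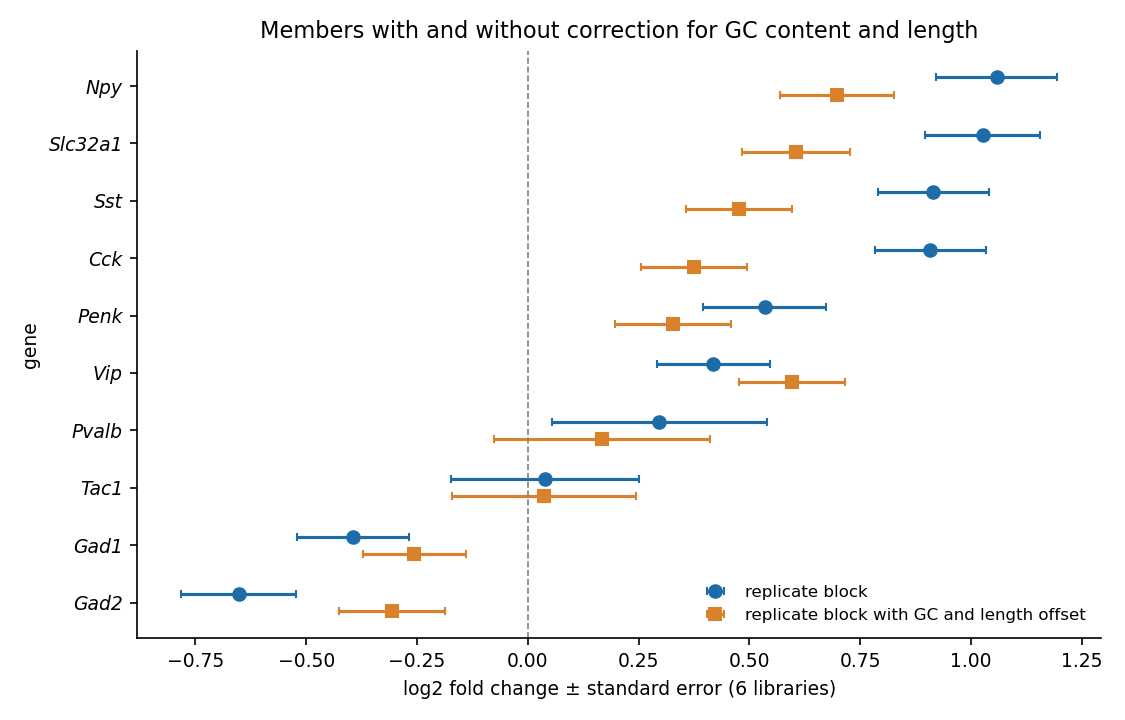
Log2 fold change ± standard error of each gene from the edgeR fit on 6 libraries with the replicate block (blue circles) and with the block and an offset for GC content and length (orange squares). The offset moves Vip up and brings the other called genes closer to 0, and the order with Npy highest and Gad1 and Gad2 below 0 is kept.

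Other genes of the same pathways were read from lists fixed by name, with the same background for calls with the block (11.8% higher and 13.2% lower). All 15 of the other neuropeptide and granin precursors tested were above 0, and their median was 0.54. Pnoc, the precursor of nociceptin, was called higher by group alone (log2 fold change 1.31, adjusted p = 0.00972). With the block 5 were called, all higher: Pnoc (1.19), the growth-factor-induced peptide precursor Vgf (1.18), Cartpt (1.03), and the granins Chga (0.56) and Chgb (0.46). With the offset as well, 3 of the 15 were called, Pnoc (1.08), Nts (0.98) and Vgf (0.66), where 9.20% of all genes were called higher. Cartpt, Chgb and Chga were then no longer called (adjusted p = 0.0377, 0.0291 and 0.221). Another 9 precursors of the list, Pomc, Avp and Oxt among them, were too low to test.

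Of 12 genes for the processing and release of peptides, 10 were positive (median 0.44), and none was called by group alone, where 8 had an unadjusted p under 0.05 (6 higher and 2 lower). With the block 5 rose and 2 fell. The inhibitor of a prohormone convertase Pcsk1n (0.92), carboxypeptidase E (Cpe, 0.76) and secretogranin III (Scg3, 0.58) were among those that rose. Those that fell were Cadps (-0.72) and Cadps2 (-0.53), which prime dense-core vesicles for release rather than process peptides. With the offset and the block 7 were higher and 1 was lower.

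Of 10 genes for the handling of GABA and the inhibitory synapse, 8 were positive (median 0.28) and 0 were called by group alone, with 5 at an unadjusted p under 0.05. With the block 4 rose and 1 fell. Among those that rose were the GABA transporter Slc6a11 (0.65), which is mainly found in astrocytes, the chloride extruder Slc12a5 (0.44) and the inhibitory adhesion protein Nlgn2 (0.42). With the offset and the block, 4 of the 10 were called, all higher.

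Of 15 receptors of the 6 peptides that could be tested, 10 were positive (median 0.16). The somatostatin receptor Sstr4 was called by group alone (0.84, adjusted p = 0.00972), and with the block Sstr4 (0.79), Sstr1 (0.59) and the cholecystokinin receptor Cckbr (0.54) rose. Npy1r had a log2 fold change of -0.36 and groups that did not overlap, and was not called (adjusted p = 0.161, and 0.0355 with the block). With the offset and the block 0 of the 15 were called.

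Other interneuron markers did not move together. Of 30, 25 could be tested, 14 were positive and the median was 0.09, where 50.1% of all genes were positive (median 0.00). With the block, 3 rose, Elfn1 (0.55), Crhbp (0.53) and Lamp5 (0.41), and 2 fell, the transcription factor Prox1 (-0.61) and the RNA-binding protein Adarb2 (-0.58). Over all genes, 11.8% rose and 13.2% fell in that fit. By group alone 0 were called, and 7 had an unadjusted p under 0.05, where 32.5% of all genes did. With the offset and the block none of these 5 was called, and Ndnf (0.70), Synpr (0.64) and Reln (0.45) were called higher instead. With both, 9.20% of all genes were called higher. The counts of this list thus lay close to the shares over all genes or under them. Reln, the most abundant of the list, had 386 ± 36.3 CPM on polyribosomes and 323 ± 100 CPM in Total (0.25, adjusted p = 0.457, and 0.28, adjusted p = 0.0771, with the block).

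**Figure D5:**
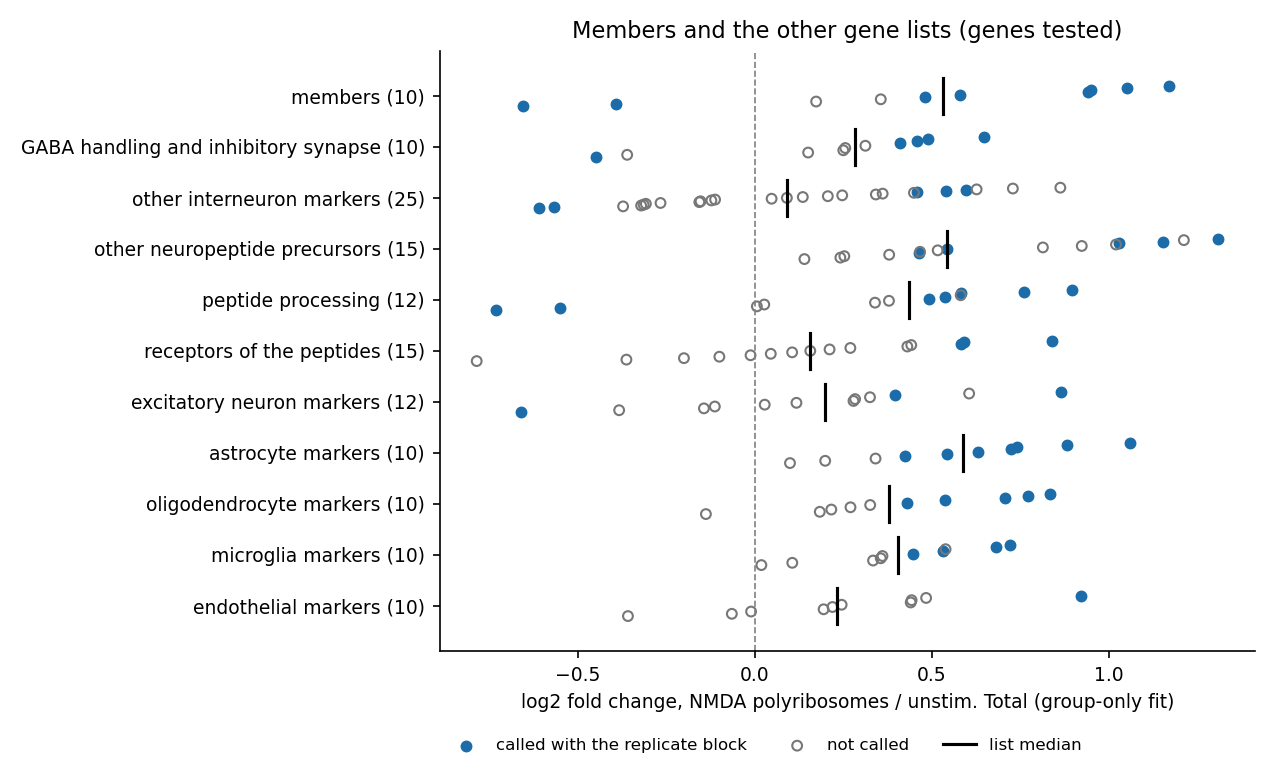
Log2 fold change of the group-only fit for the 10 genes and for 10 other lists (rows, number of genes tested in brackets), with filled points for genes called with the replicate block, open points for the others and a bar at the list median. Medians of the 10 genes (0.53), the other precursors (0.54) and the astrocyte markers (0.59) are the highest, and that of other interneuron markers (0.09) is the lowest.

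Markers of other cells were read beside these results. Excitatory neuron markers had a median of 0.20, with 2 of 12 higher with the block (Nrgn, 0.92, and Slc17a7, 0.40) and 1 lower. Over all genes 25.0% were called in that fit. With the offset as well, 3 were called, all higher, Nrgn (0.50), Slc17a6 (0.45) and Rorb (0.38). Slc17a7 was then not called (0.13, adjusted p = 0.486). The summed level of the excitatory markers was 6127 to 8030 CPM on polyribosomes and 5399 to 7231 CPM in Total. That of the 10 genes was 1002 to 2021 and 695 to 1145 CPM. All 10 astrocyte markers were positive (median 0.59), 7 rose with the block and 10 with the offset as well, and their sum was 44749 to 49150 CPM on polyribosomes and 34416 to 40331 CPM in Total, most of it from Slc1a2. Of 10 markers each, oligodendrocytes had 5 higher with the block (median 0.38, sums of 11223 to 15082 and 8084 to 11228 CPM), microglia 4 (median 0.40, sums of 956 to 1111 and 628 to 863 CPM) and endothelial cells 1 (median 0.23, sums of 374 to 654 and 401 to 420 CPM). With the offset as well, 3 oligodendrocyte and 4 microglia markers were called, all higher, and 0 endothelial markers. No defining marker of these cells was at 0. Glial mRNA was thus present in both groups, and the sums of astrocyte and microglia markers were higher in every polyribosome library than in any total library. Its part in the values of the 10 genes was not tested.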

How the data were processed

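RNA from 6 synaptoneurosome libraries was analysed, 3 NMDA polyribosomes and 3 unstim. Total. The authors mapped reads to GRCm38 (STAR 2.5.2b, demultiplexed with CASAVA 1.8.2) and deposited raw whole-number counts per protein-coding gene, counted on a Gencode basic annotation. The methods describe strand-specific libraries, the labels name a kit that does not mark strand, and the strand setting of the counting is not given in the sources used here. The same table holds the authors' own comparison (mean, fold change, error and p-values), which was not used.

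From the counts, edgeR 4.0.16 (R 4.3.3) was run with TMM scaling, filterByExpr and the quasi-likelihood test on group only, with Benjamini-Hochberg adjustment over 12255 genes and a threshold of 0.01. Smaller totals (1044955 at the least) give wider errors for low genes such as Tac1 and Pvalb. The libraries of a replicate number share a column label and deviated together across genes (correlations of 0.37, 0.26 and 0.38). The methods describe the total and the stimulated sample as aliquots of 1 preparation. The libraries of a replicate number were therefore treated as pairs. P-values by group alone measure the spread between preparations, and those with the block the spread left after preparations are matched. Both use a dispersion that edgeR shares across genes. With the block the SE was 0.13 for Sst and for Gad1, although their pair SDs were 0.03 and 0.29. The small p-values with the block thus rest on more than the 3 pairs of a gene. A permutation of 3 against 3 cannot give an exact p below 0.1. GC content, lengths and start contexts came from 1 transcript a gene of Gencode vM21 (99.6% of tested genes had one). The offset was a loess of each library's deviations on GC content and the log2 length of the whole transcript. Pair ratios used a prior count of 2. Named genes were the 10 genes, genes of each list past the threshold with or without the block (at most 6), the most abundant of a list, and the gene most correlated with each of the 10. Some genes that this rule names are not reported here. The genes and lists were chosen with earlier results of these data known. Alternatives were the block, DESeq2 1.42.0, other scalings, no filter, the offset and leaving out libraries, and the block without each pair was added after seeing the data. The group-only edgeR fit was tested on simulated counts with the same dispersion for all genes and no difference between preparations. The other fits were not tested in this way.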

Additional observations from a re-analysis of the deposited data

How the results depend on the processing

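The number of genes called was 376 by group alone, 3063 with the replicate block, 693 by DESeq2 and 1042 without a filter. With the offset for GC content and transcript length it was 150, and with the block and the offset together 2030. Leaving out 1 library gave 22 to 258 genes, fewest without unstim. Total replicate 2, and the block with 1 pair left out gave 1200 (without pair 2), 1537 (without pair 1) and 3072 (without pair 3). Of the 10 genes, 0 were called by group alone, 8 with the block, 3 by DESeq2 and 4 with the block and the offset. Without a filter 4 were called, where 1042 of 16736 genes tested were. With 1 library left out 0 to 2 were called, 2 of them without NMDA polyribosomes replicate 1, where 199 of 12280 genes tested were. With the block and 1 pair left out, 4 to 7 of the 10 genes were called. Non-overlapping groups numbered 4, and 4 to 10 with 1 library left out (10 without NMDA polyribosomes replicate 1, where 45.7% of all genes did not overlap, and 7 without unstim. Total replicate 3, where 53.7% did not). With the block, calls were 5 for GABA handling, 5 for other interneuron markers, 5 for other precursors, 7 for peptide processing, 3 for receptors, 3 for excitatory, 7 for astrocyte, 5 for oligodendrocyte, 4 for microglia and 1 for endothelial markers, against 1 each by group alone for precursors, receptors and oligodendrocytes and 0 for the others. Of 130 values of single genes under an alternative, 108 kept their direction and stayed short of the threshold, 21 passed it and 1 turned, Tac1, which ran from -0.11 without NMDA polyribosomes replicate 3 to 0.40 without replicate 1 of that group. Leaving out 1 library moved Sst from 0.55 to 1.32, without polyribosome and total replicate 3 respectively, and Npy from 0.85 to 1.42, and without NMDA polyribosomes replicate 3 Cck came to 0.59 and Vip to 0.29. Scaling by total counts alone shifted the median of all genes to -0.11 and the split of calls from 87 higher and 289 lower to 42 and 366. The direction of all 10 genes was kept under that scaling and under RLE. The cause of the differences between settings was not tested.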
